A study of Homo sapiens with 16 samples.

Results

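The 45 genes described here belong to the DNA replication programme that E2F transcription factors are known to drive. They were taken by name from the helicase, origin, polymerase, clamp, nucleotide, chromatin and E2F genes of that programme. All 45 were found among 55510 gene symbols, and all 45 were among the 22007 symbols with enough counts to be tested. The lowest count of any of them in any library was 1041 read pairs, for POLE2.

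RNA was sequenced from CAL51, a human cell line from a triple-negative breast cancer, with a near-diploid karyotype and a tetraploid fraction, at passage 10. Cells received CC-671, a compound that inhibits the spindle checkpoint kinase TTK and the splicing kinase CLK2, or its DMSO vehicle. The groups were CC-671 at 3 µM for 6 h with 3 libraries, CC-671 at 10 µM for 6 h with 3 libraries and DMSO for 6 h with 2 libraries, and the same set at 24 h, which made 6 groups and 16 libraries. All groups shared DMEM medium with fetal bovine serum. The labels describe biological replicates without saying what separates them, so a p-value here measures library-to-library spread. Levels are counts divided by the library total, scaled by its TMM factor, on the CPM scale. In bulk RNA, fewer cells that carry a transcript cannot be told apart from less of it in each cell.

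Before S phase, the origin recognition complex, CDC6 and CDT1 load the MCM2-7 ring onto DNA, and CDC45 with the GINS proteins turns that ring into a moving helicase. DNA polymerase alpha with primase starts each strand, and polymerases delta and epsilon extend it on the PCNA clamp, which the RFC loader places. E2F1 and E2F2 activate genes of this programme when the retinoblastoma protein releases them, whereas E2F7 and E2F8 repress it, and all of these are themselves E2F targets.

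The promoters of these genes are shown because E2F factors are known to bind short sites of this kind close to the start of their targets. RefSeq promoter entries (GRCh38.p14, from 250 bases before to 50 bases after the start) were found for 39 of the 45 genes, and MCM4, MCM5, GINS4, POLD3, RPA2 and E2F8 were not matched. Of these 39 promoters, 20 (51.3%) held at least 1 of the letters TTTCCCGC, TTTGGCGC, TTTCGCGC or TTTGCCGC on either strand, against 908 of 27305 entries (3.33%). TTTCCCGC was in 10 of the 39, TTTGGCGC in 8, TTTCGCGC in 5 and TTTGCCGC in 1. TTTGGCGC and TTTCGCGC can overlap when they lie on opposite strands. The 7 windows below show 80 bases each upstream of the start, 5′ to 3′ on the strand of the gene, with the motif letters in capitals, and were picked for genes that rose, fell or changed direction.
CDT1: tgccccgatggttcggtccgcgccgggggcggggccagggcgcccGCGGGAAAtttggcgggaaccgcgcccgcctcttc
MCM7: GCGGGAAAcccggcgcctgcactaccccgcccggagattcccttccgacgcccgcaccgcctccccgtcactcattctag
MCM6: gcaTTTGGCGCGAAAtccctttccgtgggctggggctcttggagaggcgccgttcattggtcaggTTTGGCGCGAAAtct
E2F2: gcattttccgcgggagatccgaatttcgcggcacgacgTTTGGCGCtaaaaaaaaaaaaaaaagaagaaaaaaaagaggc
PCNA: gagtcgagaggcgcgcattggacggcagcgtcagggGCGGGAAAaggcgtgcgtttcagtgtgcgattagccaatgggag
POLA1: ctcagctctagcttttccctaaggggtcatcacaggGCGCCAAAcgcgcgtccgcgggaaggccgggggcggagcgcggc
E2F1: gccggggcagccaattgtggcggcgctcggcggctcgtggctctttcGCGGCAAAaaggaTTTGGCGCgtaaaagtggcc

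The CDT1 window is chr16:88803709-88803788, plus strand, bases −80 to −1 from the start and holds TTTCCCGC on the opposite strand. The MCM7 window is chr7:100101505-100101584, minus strand, bases −187 to −108 from the start, with the same letters on the opposite strand at its first bases. The MCM6 window, chr2:135876519-135876598, minus strand, bases −155 to −76 from the start, holds TTTGGCGC overlapping the reverse complement of TTTCGCGC, and holds this pair near each end. The E2F2 window is chr1:23531234-23531313, minus strand, bases −80 to −1 from the start, with TTTGGCGC on the strand of the gene. The PCNA window is chr20:5126638-5126717, minus strand, bases −95 to −16 from the start, with TTTCCCGC on the opposite strand. The POLA1 window is chrX:24693745-24693824, plus strand, bases −173 to −94 from the start, with TTTGGCGC on the opposite strand. The E2F1 window is chr20:33686386-33686465, minus strand, bases −80 to −1 from the start, with TTTGCCGC on the opposite strand and TTTGGCGC on its own. These coordinates are on GRCh38.p14, whereas the counts were made on hg19 (GRCh37). A match is a match of letters only, and its absence says nothing of binding elsewhere.

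At 6 h more of the 45 genes fell than rose, and the largest falls exceeded the largest rises. A change here is an adjusted p under 0.05 in edgeR's quasi-likelihood F test with Benjamini-Hochberg adjustment over all genes tested. Values given with ± alone, in parentheses or after a gene, are log2 fold changes with their SE. They are against DMSO, except where a difference of effects or a comparison of 10 µM with 3 µM is described. At 3 µM, 40 of 45 genes were called in either direction (63.2% of all genes tested). Of them 26 fell (31.6% of all genes tested did) and 14 rose (31.6%), with a median log2 fold change of −0.16 against 0.017 over all genes. At 10 µM, 40 of 45 were called (67.6% of all genes). Of them 29 fell (33.6% of all genes) and 11 rose (34% of all genes), with a median of −0.26 against 0.013. Falls of at least 2-fold were seen in 4 genes at 3 µM and in 9 at 10 µM (4.92% and 6.77% of all genes), and the largest rise was 0.75, in ORC1 at 10 µM. The 45 genes together held 6517 ± 85.1 CPM at 3 µM and 6073 ± 49.6 CPM at 10 µM (SD, n = 3), against 7038 ± 47.4 CPM in DMSO libraries (SD, n = 2). Lack of overlap with DMSO was common over all genes. Every 3 µM library lay above both DMSO libraries in 14 of the 45 genes (36.9% of all genes tested) and below in 26 (35.8%). Every 10 µM library did so in 12 (37.6% of all genes) and 30 (36.9%).

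At 24 h the changes were smaller. At 3 µM, 34 of 45 were called (60.6% of all genes). Of them 21 fell (30.9% of all genes) and 13 rose (29.7% of all genes), with a median of −0.059 against 0.00081 over all genes, but without a scaling factor (plain library totals) 11 fell and 18 rose, with a median of 0.042. At 10 µM, 36 were called (63.6% of all genes). Of them 26 fell (32.3% of all genes) and 10 rose (31.3% of all genes), with a median of −0.12 against 0.0055, but without a scaling factor 13 fell and 15 rose, with a median of −0.012. That alternative moved the median of all genes by 0.10 at 3 µM and 0.11 at 10 µM, and 62.9% and 62.3% of its calls over all genes were rises. The largest falls were those of POLA1, −0.82 at 3 µM and −0.99 at 10 µM. The summed level was 6539 ± 38.1 CPM at 3 µM and 6148 ± 67.2 CPM at 10 µM (SD, n = 3), against 6907 ± 103 CPM in DMSO libraries (SD, n = 2). Every 3 µM library lay above both DMSO libraries in 14 of the 45 genes (37.2% of all genes tested) and below in 24 (38.3%). Every 10 µM library did so in 11 (38.5% of all genes) and 28 (39%).

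Rises and falls were counted for genes with and without the motif, as a description. The shares of all genes tested that rose and fell are those given above for each comparison. At 3 µM and 6 h, 6 of the 20 genes with a motif rose and 12 fell, and 7 of the 19 without one rose and 10 fell. At 10 µM and 6 h the counts were 5 and 13 of 20 with a motif, and 5 and 11 of 19 without. At 24 h, 6 and 11 of 20 with a motif rose and fell at 3 µM, against 5 and 7 of 19 without, and 4 and 11 of 20 did so at 10 µM, against 4 and 12 of 19. Of the genes printed above, CDT1 rose in all 4 comparisons with vehicle, POLA1 and E2F1 fell in all 4, and MCM7 and E2F2 changed direction between 6 and 24 h.

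**Figure D1:**
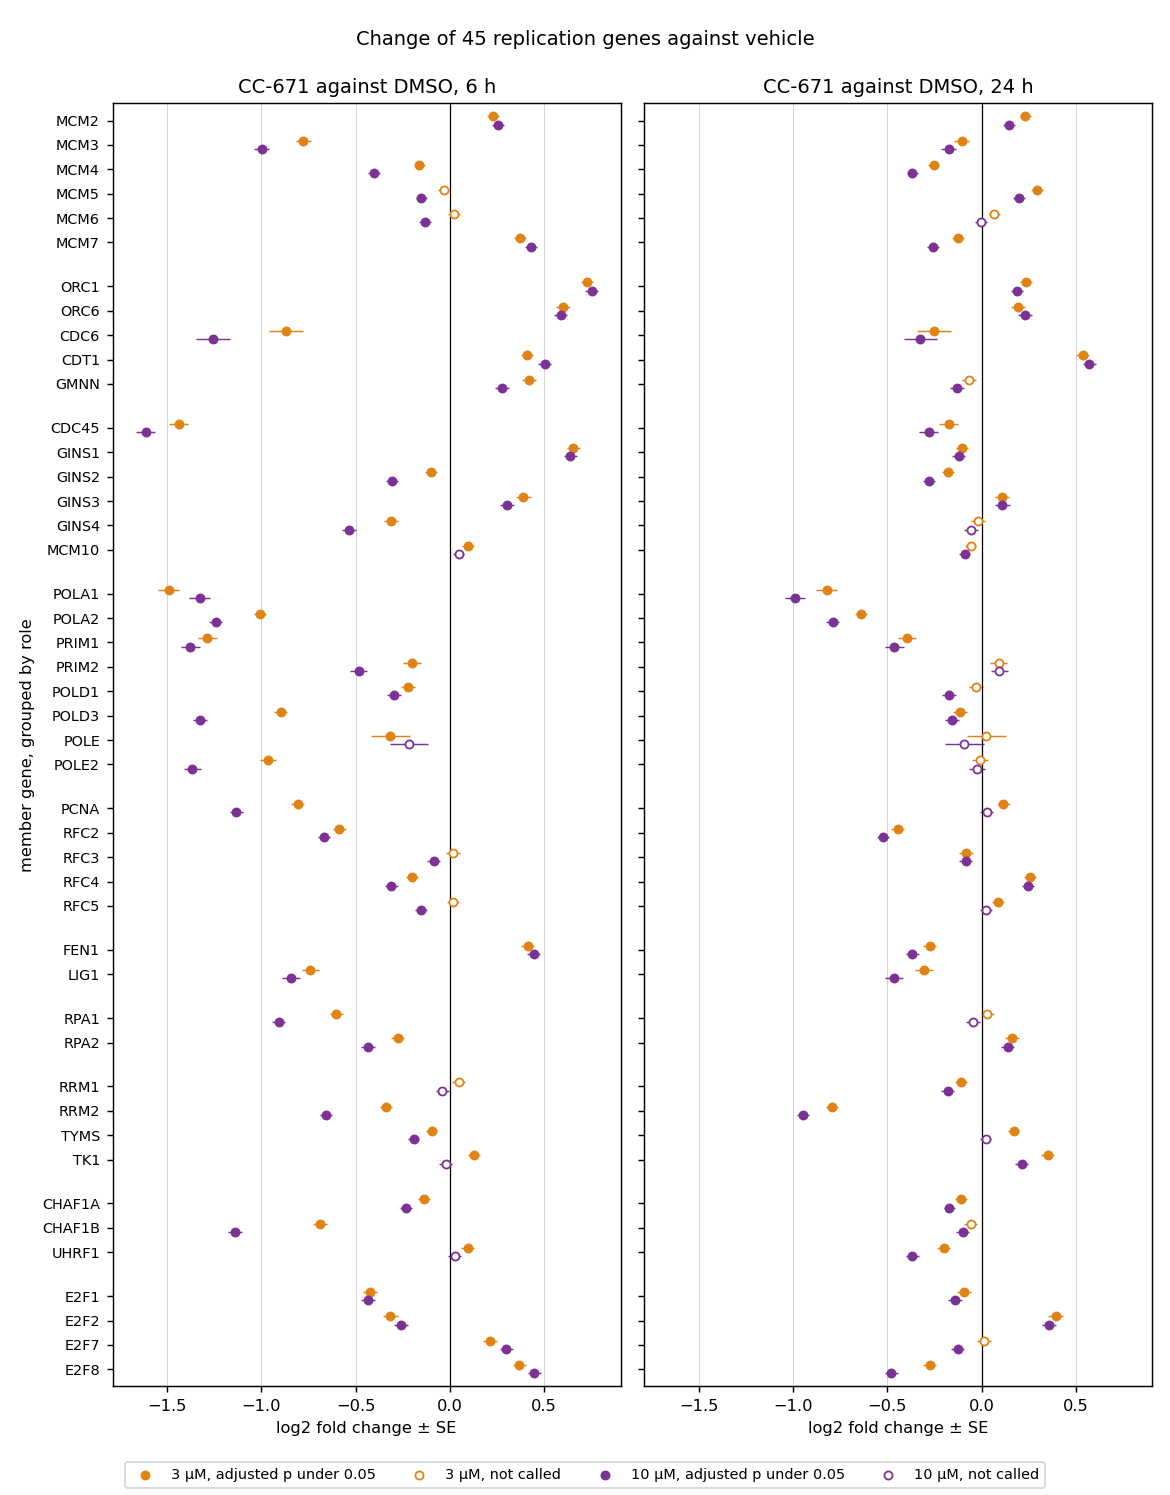
Log2 fold change ± SE of each of the 45 genes against DMSO at 6 h (left) and 24 h (right), grouped by role down the page, with 3 µM in orange and 10 µM in purple. Filled points have an edgeR adjusted p under 0.05 and open points do not, and the polymerase and primase genes lie left of 0 at 6 h, between −0.20 (PRIM2 at 3 µM) and −1.49 (POLA1 at 3 µM).

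The 8 polymerase and primase genes described here had the lowest median of the 10 role groups at 6 h. Further subunits of polymerases delta and epsilon, listed among other replication genes, were not below DMSO as groups at 6 h. POLD2 (199 to 215 CPM in treated, 205 and 215 CPM in DMSO libraries) and POLD4 (1.3 to 1.66 against 1.53 and 1.65 CPM) overlapped DMSO at both doses. POLE3 and POLE4 (28.9 to 33.3 against 28.1 and 28.3 CPM) were above it in every treated library. At 3 µM and 6 h all 8 of the role group fell (31.6% of all genes tested did), with a median of −0.93. At 10 µM 7 of 8 fell (33.6% of all genes), with a median of −1.28. The exception at 10 µM was POLE, the catalytic subunit of polymerase epsilon (log2 fold change −0.22 ± 0.10, edgeR adjusted p = 0.0843), which limma-voom did call (adjusted p = 0.0131). The fall of POLE at 3 µM (−0.32 ± 0.10) was not called without replicate 2 of the 3 µM group or without replicate 2 of DMSO at 6 h. At 24 h, 4 of the 8 fell at 3 µM (30.9% of all genes) and 5 at 10 µM (32.3% of all genes). None of the 8 rose by edgeR, against 29.7% of all genes at 3 µM and 31.3% at 10 µM. Without a scaling factor, however, 3 fell and 1 rose at either dose at 24 h. At an unadjusted p under 0.05, 1 rise was counted at 10 µM and 0 at 3 µM, and DESeq2 and limma-voom each called 0 at either dose.

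POLA1 encodes the catalytic subunit of polymerase alpha. At 6 h, POLA1 had 33.5, 28.5 and 29.2 CPM at 3 µM, 35.8, 31.6 and 34.7 CPM at 10 µM, and 83.3 and 87.6 CPM in DMSO libraries. At 24 h, POLA1 had 53.9, 55.9 and 54.1 CPM at 3 µM, 48.9, 47.9 and 49.2 CPM at 10 µM, and 99 and 94.2 CPM in DMSO libraries. Every treated library lay below both DMSO libraries at both times, and the log2 fold changes were −1.49 ± 0.055 at 3 µM and −1.33 ± 0.055 at 10 µM at 6 h. For POLA1 at 24 h, the log2 fold changes were −0.82 ± 0.054 at 3 µM and −0.99 ± 0.054 at 10 µM (largest edgeR adjusted p = 1.08e-10). POLA2, its accessory subunit, fell in the same comparisons (−1.01 ± 0.033 at 3 µM and −1.24 ± 0.033 at 10 µM at 6 h, −0.64 ± 0.033 at 3 µM and −0.79 ± 0.033 at 10 µM at 24 h). PRIM1, the catalytic primase subunit, fell in all 4 as well (−1.29 ± 0.050 at 3 µM and −1.38 ± 0.050 at 10 µM at 6 h, −0.40 ± 0.049 at 3 µM and −0.46 ± 0.049 at 10 µM at 24 h). PRIM2, the large primase subunit, fell at 6 h (−0.20 ± 0.045 at 3 µM and −0.48 ± 0.045 at 10 µM) and had log2 fold changes of 0.091 ± 0.045 at 3 µM and 0.094 ± 0.045 at 10 µM at 24 h, which were not called. At 24 h PRIM2 was a called rise at both doses without a scaling factor (log2 fold change 0.19 at 3 µM and 0.20 at 10 µM), under a stricter filter of 1 CPM in 5 libraries (0.13 and 0.13), in the compared groups alone (0.10 and 0.10) and without replicate 1 of DMSO (0.14 and 0.15). It was also one at 3 µM without replicate 3 of 3 µM, and at 10 µM with no filter.

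POLD3 is an accessory subunit of polymerase delta and POLE2 one of polymerase epsilon, and their 6 h falls did not extend to 24 h at the same size. At 6 h, POLD3 had 44, 42.5 and 46.2 CPM at 3 µM, 32.7, 31.4 and 34.5 CPM at 10 µM, and 81.4 and 83.5 CPM in DMSO libraries. At 24 h, POLD3 had 79.5, 79.5 and 79.7 CPM at 3 µM, 77.8, 76.9 and 76.4 CPM at 10 µM, and 87 and 85 CPM in DMSO libraries. The treated libraries were all below DMSO at both times, with log2 fold changes of −0.90 ± 0.037 at 3 µM and −1.33 ± 0.037 at 10 µM at 6 h. For POLD3 at 24 h, the log2 fold changes were −0.11 ± 0.037 at 3 µM and −0.16 ± 0.037 at 10 µM. The 24 h calls of POLD3 ended without a scaling factor (adjusted p = 0.787 at 3 µM and 0.25 at 10 µM), and at 3 µM also under the stricter filter or without replicate 1 of DMSO. At 6 h, POLE2 had 12.6, 12.2 and 12.9 CPM at 3 µM, 9.13, 9.49 and 9.9 CPM at 10 µM, and 24.4 and 24.6 CPM in DMSO libraries. At 24 h, POLE2 had 23.6, 24.2 and 23.7 CPM at 3 µM, 24.2, 23.3 and 23.3 CPM at 10 µM, and 23.9 and 24.2 CPM in DMSO libraries. POLE2 groups did not overlap at 6 h (−0.96 ± 0.042 at 3 µM and −1.36 ± 0.043 at 10 µM, larger edgeR adjusted p = 2.33e-17) and overlapped at 24 h (−0.010 ± 0.041 at 3 µM and −0.025 ± 0.041 at 10 µM, adjusted p = 0.843 and 0.609). POLD1, the catalytic subunit of polymerase delta, fell at 6 h (−0.22 ± 0.037 at 3 µM and −0.30 ± 0.037 at 10 µM) and at 10 µM at 24 h (log2 fold change −0.17 ± 0.037), but not at 24 h without a scaling factor (adjusted p = 0.175).

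**Figure D2:**
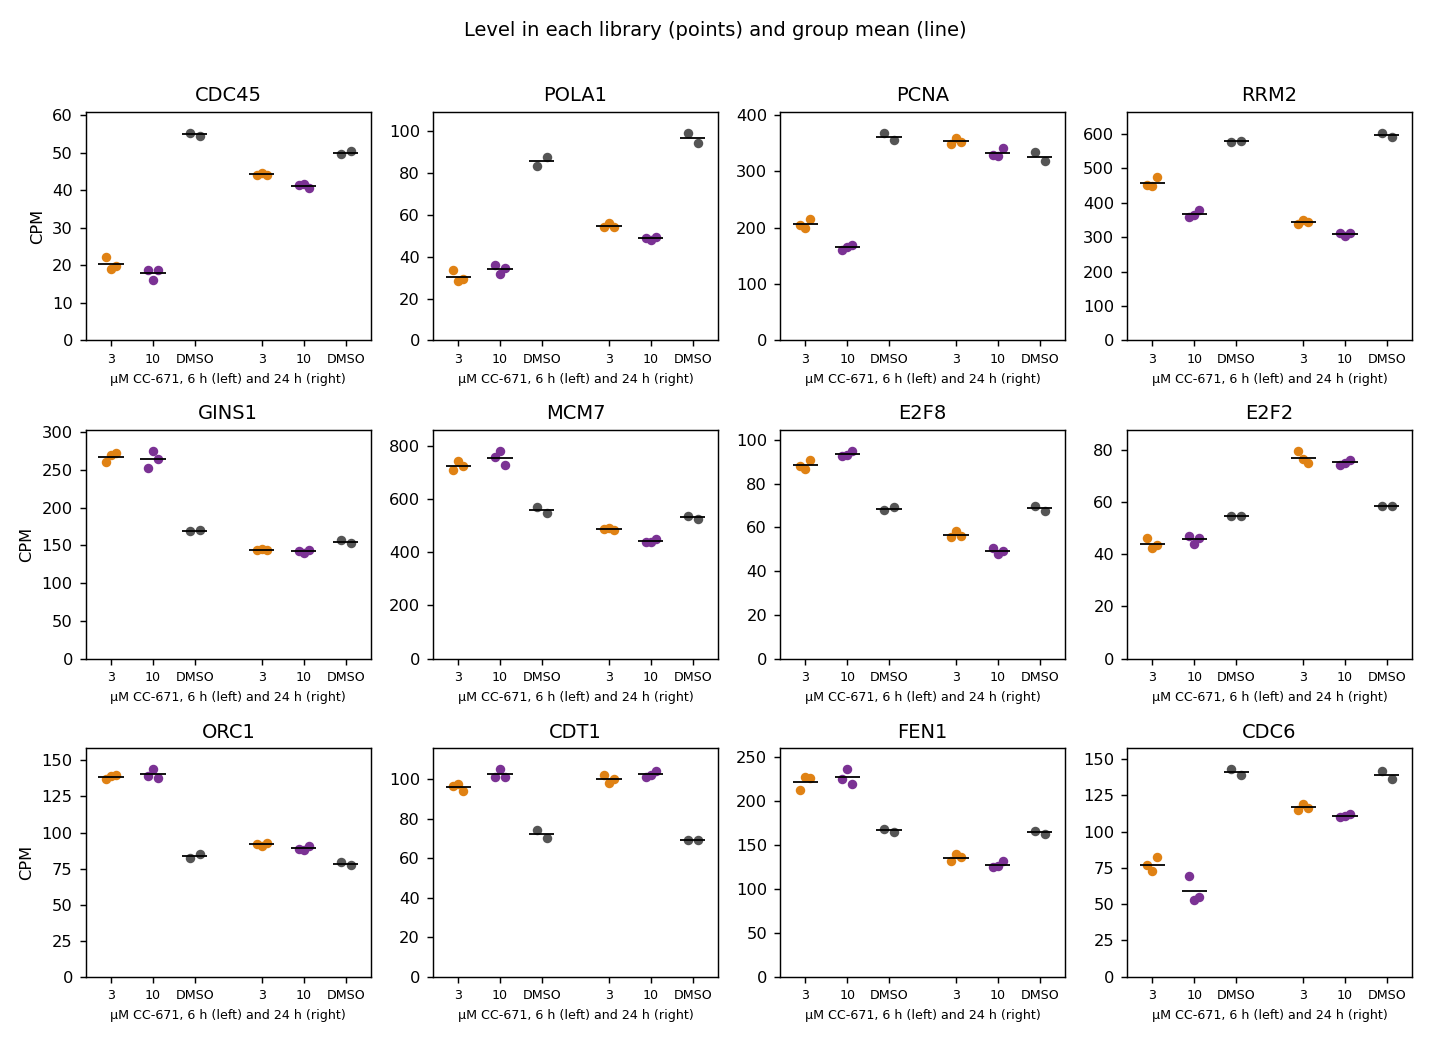
CPM of 12 of the genes in every library (points) with the mean of each group (line), for CC-671 at 3 µM, 10 µM and DMSO at 6 h on the left of each panel and at 24 h on the right, each panel with its own axis from 0. CDC45, POLA1, PCNA and CDC6 are lower in every treated library than in DMSO at 6 h, GINS1, MCM7, E2F8 and FEN1 are higher at 6 h and lower at 24 h, and E2F2 is the reverse.

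Of the 5 origin licensing genes described here, ORC1, ORC6, CDT1 and GMNN rose at both doses at 6 h and CDC6 fell. Further subunits of the origin recognition complex, listed among other replication genes, mostly lay below DMSO at 6 h. ORC2 had 32.1 to 44 CPM in treated and 76.8 and 78.3 CPM in DMSO libraries. ORC3 had 29.2 to 43.2 CPM against 67.5 and 68.6 CPM, and ORC5 had 21 to 26.4 CPM against 33.7 and 35.6 CPM. ORC4 was above DMSO, with 68.6 to 83.7 CPM against 66.9 and 67.3 CPM. ORC1 encodes the largest subunit of the origin recognition complex. At 6 h, ORC1 had 137, 139 and 140 CPM at 3 µM, 139, 144 and 138 CPM at 10 µM, and 82.2 and 84.8 CPM in DMSO libraries. At 24 h, ORC1 had 92.3, 90.9 and 93 CPM at 3 µM, 88.5, 87.9 and 90.9 CPM at 10 µM, and 79.5 and 77.2 CPM in DMSO libraries. All treated libraries were above DMSO at both times, with log2 fold changes of 0.73 ± 0.032 at 3 µM and 0.75 ± 0.032 at 10 µM at 6 h. For ORC1 at 24 h, the log2 fold changes were 0.23 ± 0.032 at 3 µM and 0.19 ± 0.032 at 10 µM (largest edgeR adjusted p = 1.13e-05). ORC6, another subunit of that complex, rose with log2 fold changes of 0.60 ± 0.036 at 3 µM and 0.59 ± 0.036 at 10 µM at 6 h. For ORC6 at 24 h, the log2 fold changes were 0.19 ± 0.036 at 3 µM and 0.23 ± 0.036 at 10 µM.

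CDC6, which acts with CDT1 in loading the helicase, moved the other way. At 6 h, CDC6 had 76.6, 72.9 and 82.2 CPM at 3 µM, 69.1, 52.8 and 55 CPM at 10 µM, and 143 and 139 CPM in DMSO libraries. At 24 h, CDC6 had 115, 119 and 116 CPM at 3 µM, 110, 111 and 112 CPM at 10 µM, and 142 and 136 CPM in DMSO libraries. The treated libraries lay below both DMSO libraries at both times (−0.87 ± 0.089 at 3 µM and −1.26 ± 0.090 at 10 µM at 6 h, −0.25 ± 0.089 at 3 µM and −0.33 ± 0.089 at 10 µM at 24 h). The 24 h calls of CDC6 ended without a scaling factor (adjusted p = 0.168 at 3 µM and 0.0541 at 10 µM). Over all alternatives the adjusted p of CDC6 at 24 h was 8.92e-10 to 0.168 at 3 µM and 6.84e-18 to 0.0559 at 10 µM. Without replicate 1 of DMSO at 24 h both calls ended as well, and at 3 µM also without replicate 2 of DMSO or without replicate 1 or 3 of 3 µM.

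CDT1 was above DMSO at both times, and GMNN, which encodes its inhibitor geminin, at 6 h. At 6 h, CDT1 had 96.7, 97.5 and 93.7 CPM at 3 µM, 101, 105 and 101 CPM at 10 µM, and 74.4 and 70.2 CPM in DMSO libraries. At 24 h, CDT1 had 102, 97.8 and 100 CPM at 3 µM, 101, 102 and 104 CPM at 10 µM, and 68.9 and 68.9 CPM in DMSO libraries. CDT1 was above both DMSO libraries in every treated library, with log2 fold changes of 0.41 ± 0.034 at 3 µM and 0.50 ± 0.034 at 10 µM at 6 h. For CDT1 at 24 h, the log2 fold changes were 0.53 ± 0.034 at 3 µM and 0.57 ± 0.034 at 10 µM (largest edgeR adjusted p = 2.16e-11). GMNN rose with log2 fold changes of 0.42 ± 0.037 at 3 µM and 0.28 ± 0.037 at 10 µM at 6 h. For GMNN at 24 h, the log2 fold changes were −0.065 ± 0.037 at 3 µM and −0.13 ± 0.037 at 10 µM, of which the 10 µM fall was called. That call ended without a scaling factor (adjusted p = 0.627).

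Members of the MCM2-7 ring did not move together. MCM2 rose in all 4 comparisons (0.23 ± 0.031 at 3 µM and 0.25 ± 0.031 at 10 µM at 6 h, 0.23 ± 0.031 at 3 µM and 0.14 ± 0.031 at 10 µM at 24 h). MCM4 fell in all 4 (−0.16 ± 0.031 at 3 µM and −0.40 ± 0.031 at 10 µM at 6 h, −0.26 ± 0.031 at 3 µM and −0.37 ± 0.031 at 10 µM at 24 h). MCM3 fell furthest of the 6 at 6 h. At 6 h, MCM3 had 245, 214 and 230 CPM at 3 µM, 200, 187 and 205 CPM at 10 µM, and 393 and 395 CPM in DMSO libraries. At 24 h, MCM3 had 367, 367 and 362 CPM at 3 µM, 348, 345 and 352 CPM at 10 µM, and 396 and 390 CPM in DMSO libraries. The treated libraries lay below DMSO at both times, with log2 fold changes of −0.78 ± 0.040 at 3 µM and −0.999 ± 0.040 at 10 µM at 6 h. For MCM3 at 24 h, the log2 fold changes were −0.11 ± 0.040 at 3 µM and −0.17 ± 0.040 at 10 µM. These calls ended without a scaling factor (adjusted p = 0.937 at 3 µM and 0.205 at 10 µM). At 3 µM and 24 h, the MCM3 call also ended under the stricter filter, without either DMSO library and without replicate 3 of 3 µM.

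MCM7 was above DMSO at 6 h and below it at 24 h. At 6 h, MCM7 had 712, 744 and 724 CPM at 3 µM, 758, 782 and 730 CPM at 10 µM, and 572 and 550 CPM in DMSO libraries. At 24 h, MCM7 had 490, 491 and 486 CPM at 3 µM, 441, 441 and 452 CPM at 10 µM, and 538 and 527 CPM in DMSO libraries. No treated library overlapped DMSO at either time, and the log2 fold changes were 0.37 ± 0.032 at 3 µM and 0.43 ± 0.032 at 10 µM at 6 h. For MCM7 at 24 h, the log2 fold changes were −0.12 ± 0.032 at 3 µM and −0.26 ± 0.032 at 10 µM. The 3 µM call of MCM7 at 24 h ended without a scaling factor (adjusted p = 0.522). MCM5 did not pass at 3 µM and 6 h and fell at 10 µM (−0.034 ± 0.031 at 3 µM and −0.15 ± 0.031 at 10 µM), and it rose at 24 h (0.29 ± 0.031 at 3 µM and 0.20 ± 0.031 at 10 µM). MCM6 fell at 10 µM and 6 h (log2 fold change −0.13 ± 0.031) and did not pass in the other comparisons with vehicle, but without a scaling factor it rose at 24 h (log2 fold change 0.17 at 3 µM and 0.11 at 10 µM). At 3 µM and 24 h MCM6 was also a called rise under the stricter filter (log2 fold change 0.11, adjusted p = 0.00242) and in the compared groups alone (0.078, adjusted p = 0.00201), with adjusted p from 1.01e-05 to 0.443 over 13 alternatives.

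Helicase activation genes held both the deepest fall and one of the larger rises of the 45. CDC45 encodes a core part of the moving helicase. At 6 h, CDC45 had 22.1, 18.9 and 19.8 CPM at 3 µM, 18.8, 16.2 and 18.8 CPM at 10 µM, and 55.2 and 54.5 CPM in DMSO libraries. At 24 h, CDC45 had 44.1, 44.6 and 44.1 CPM at 3 µM, 41.3, 41.5 and 40.6 CPM at 10 µM, and 49.7 and 50.3 CPM in DMSO libraries. Treated libraries were below DMSO at both times, with log2 fold changes of −1.44 ± 0.051 at 3 µM and −1.61 ± 0.052 at 10 µM at 6 h. For CDC45 at 24 h, the log2 fold changes were −0.18 ± 0.051 at 3 µM and −0.28 ± 0.051 at 10 µM. The 3 µM call of CDC45 at 24 h ended without a scaling factor (adjusted p = 0.256, over all alternatives 4.83e-06 to 0.256).

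The 4 GINS subunits, which form 1 complex, went different ways. At 6 h, GINS1 had 260, 270 and 272 CPM at 3 µM, 253, 275 and 265 CPM at 10 µM, and 169 and 170 CPM in DMSO libraries. At 24 h, GINS1 had 144, 145 and 144 CPM at 3 µM, 143, 140 and 144 CPM at 10 µM, and 157 and 153 CPM in DMSO libraries. GINS1 was above DMSO in all treated libraries at 6 h (0.66 ± 0.034 at 3 µM and 0.64 ± 0.034 at 10 µM) and below in all at 24 h (−0.10 ± 0.033 at 3 µM and −0.12 ± 0.033 at 10 µM). Both 24 h calls of GINS1 ended without a scaling factor (adjusted p = 0.922 at 3 µM and 0.738 at 10 µM) and without replicate 1 of DMSO at 24 h. GINS2 fell in all 4 comparisons (−0.10 ± 0.032 at 3 µM and −0.31 ± 0.032 at 10 µM at 6 h, −0.18 ± 0.032 at 3 µM and −0.28 ± 0.032 at 10 µM at 24 h). GINS3 rose at 6 h (0.39 ± 0.038 at 3 µM and 0.30 ± 0.038 at 10 µM) and at 24 h (0.11 ± 0.038 at 3 µM and 0.11 ± 0.038 at 10 µM), where its calls ended without replicate 1 or without replicate 2 of DMSO. GINS4 fell at 6 h (−0.31 ± 0.036 at 3 µM and −0.54 ± 0.036 at 10 µM). At 24 h GINS4 had −0.019 ± 0.036 at 3 µM and −0.056 ± 0.036 at 10 µM, which were not called, although a rise at 3 µM was called without a scaling factor (log2 fold change 0.082). MCM10, a helicase activation factor, rose at 3 µM and 6 h (log2 fold change 0.096 ± 0.031) and fell at 10 µM and 24 h (log2 fold change −0.091 ± 0.031), and had the other sign there without a scaling factor (0.020). The 6 h call of MCM10 ended without replicate 1 or without replicate 2 of DMSO, and the 24 h call without replicate 1 of DMSO.

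PCNA, the sliding clamp of the polymerases, fell at 6 h and not at 24 h, and this difference in effect was itself called at both doses (0.92 ± 0.049 at 3 µM and 1.16 ± 0.049 at 10 µM). At 6 h, PCNA had 205, 200 and 215 CPM at 3 µM, 161, 165 and 170 CPM at 10 µM, and 368 and 355 CPM in DMSO libraries. At 24 h, PCNA had 348, 359 and 352 CPM at 3 µM, 329, 327 and 341 CPM at 10 µM, and 334 and 318 CPM in DMSO libraries. At 6 h every treated library was below DMSO (−0.81 ± 0.034 at 3 µM and −1.13 ± 0.034 at 10 µM, larger edgeR adjusted p = 1e-17). At 24 h the 3 µM libraries were above DMSO (log2 fold change 0.11 ± 0.034) and the 10 µM libraries overlapped it (log2 fold change 0.026 ± 0.034, adjusted p = 0.521). The 24 h rise at 3 µM ended without replicate 2 of DMSO (adjusted p = 0.15), and at 10 µM a rise was called without a scaling factor (log2 fold change 0.14). DMSO libraries also had less PCNA at 24 h than at 6 h (log2 fold change −0.15 ± 0.037), a call that ended without replicate 1 of DMSO at 6 h or without replicate 2 at 24 h.

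RFC2, RFC3, RFC4 and RFC5, which encode loader subunits of that clamp, showed smaller and mixed changes. RFC1, the large loader subunit, was listed among other replication genes and fell further than PCNA at 6 h (−1.68 ± 0.076 at 3 µM and −1.86 ± 0.076 at 10 µM). At 6 h, RFC4 had 72.8, 74 and 77.4 CPM at 3 µM, 68.5, 68.7 and 70.5 CPM at 10 µM, and 85.8 and 85.9 CPM in DMSO libraries. At 24 h, RFC4 had 93.6, 95.8 and 91.9 CPM at 3 µM, 92.4, 92.1 and 95.1 CPM at 10 µM, and 78.2 and 78.9 CPM in DMSO libraries. RFC4 was below DMSO in all treated libraries at 6 h (−0.20 ± 0.033 at 3 µM and −0.31 ± 0.033 at 10 µM) and above in all at 24 h (0.26 ± 0.033 at 3 µM and 0.25 ± 0.033 at 10 µM). RFC2 fell in all 4 comparisons (−0.59 ± 0.033 at 3 µM and −0.67 ± 0.033 at 10 µM at 6 h, −0.45 ± 0.033 at 3 µM and −0.52 ± 0.033 at 10 µM at 24 h). RFC5 fell at 10 µM and 6 h (log2 fold change −0.15 ± 0.032) and rose at 3 µM and 24 h (log2 fold change 0.084 ± 0.032), a call that ended without either DMSO library. RFC3 stayed within 0.10 of 0 in all 4 comparisons, and each of its 3 called falls was lost in 6 or 7 of 13 alternatives, with the other sign at 24 h without a scaling factor.

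FEN1 and LIG1, which trim and seal Okazaki fragments on the lagging strand, moved apart at 6 h and together at 24 h. At 6 h, FEN1 had 212, 227 and 226 CPM at 3 µM, 225, 236 and 219 CPM at 10 µM, and 168 and 165 CPM in DMSO libraries. At 24 h, FEN1 had 131, 139 and 136 CPM at 3 µM, 125, 126 and 131 CPM at 10 µM, and 166 and 162 CPM in DMSO libraries. FEN1 libraries did not overlap DMSO at either time, with log2 fold changes of 0.41 ± 0.037 at 3 µM and 0.44 ± 0.037 at 10 µM at 6 h. For FEN1 at 24 h, they were −0.28 ± 0.036 at 3 µM and −0.37 ± 0.036 at 10 µM (largest edgeR adjusted p = 2.12e-07). At 6 h, LIG1 had 78.3, 70.3 and 72.7 CPM at 3 µM, 69.9, 63.9 and 72.4 CPM at 10 µM, and 125 and 121 CPM in DMSO libraries. At 24 h, LIG1 had 97.8, 90 and 91.6 CPM at 3 µM, 82.8, 85.4 and 82.2 CPM at 10 µM, and 116 and 115 CPM in DMSO libraries. LIG1 was below DMSO in every treated library, with log2 fold changes of −0.74 ± 0.047 at 3 µM and −0.84 ± 0.047 at 10 µM at 6 h. For LIG1 at 24 h, the log2 fold changes were −0.31 ± 0.047 at 3 µM and −0.46 ± 0.047 at 10 µM.

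RPA1 and RPA2 encode subunits of the protein that coats single-stranded DNA, and both fell at 6 h. At 6 h, RPA1 had 141, 142 and 155 CPM at 3 µM, 115, 118 and 121 CPM at 10 µM, and 222 and 221 CPM in DMSO libraries. At 24 h, RPA1 had 244, 251 and 245 CPM at 3 µM, 232, 230 and 241 CPM at 10 µM, and 246 and 238 CPM in DMSO libraries. RPA1 was below DMSO in all treated libraries at 6 h (−0.60 ± 0.035 at 3 µM and −0.91 ± 0.035 at 10 µM). It overlapped DMSO at 24 h (0.029 ± 0.035 at 3 µM and −0.047 ± 0.035 at 10 µM, adjusted p = 0.493 and 0.256), where a rise at 3 µM was called without a scaling factor (log2 fold change 0.13). At 6 h, RPA2 had 60.5, 63.7 and 63.7 CPM at 3 µM, 54.1, 58.2 and 56.2 CPM at 10 µM, and 76.5 and 75.3 CPM in DMSO libraries. At 24 h, RPA2 had 79, 82.2 and 81.3 CPM at 3 µM, 78.6, 79.5 and 80.6 CPM at 10 µM, and 73.5 and 71.1 CPM in DMSO libraries. RPA2 changed sides between times, with log2 fold changes of −0.28 ± 0.035 at 3 µM and −0.43 ± 0.035 at 10 µM at 6 h. For RPA2 at 24 h, they were 0.16 ± 0.035 at 3 µM and 0.14 ± 0.035 at 10 µM.

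Of the enzymes of nucleotide supply, RRM2 fell most, and it fell further at 24 h than at 6 h (difference of effects −0.46 ± 0.046 at 3 µM and −0.29 ± 0.046 at 10 µM). RRM2 encodes the regulated small subunit of ribonucleotide reductase. At 6 h, RRM2 had 450, 447 and 475 CPM at 3 µM, 357, 365 and 379 CPM at 10 µM, and 577 and 580 CPM in DMSO libraries. At 24 h, RRM2 had 337, 349 and 345 CPM at 3 µM, 313, 304 and 312 CPM at 10 µM, and 602 and 590 CPM in DMSO libraries. No treated library overlapped DMSO, with log2 fold changes of −0.34 ± 0.032 at 3 µM and −0.66 ± 0.032 at 10 µM at 6 h. For RRM2 at 24 h, they were −0.79 ± 0.032 at 3 µM and −0.95 ± 0.032 at 10 µM (largest edgeR adjusted p = 3.23e-10). RRM1, the large subunit of that enzyme, did not pass at 6 h (0.046 ± 0.033 at 3 µM and −0.040 ± 0.033 at 10 µM). It fell at 24 h (−0.11 ± 0.033 at 3 µM and −0.18 ± 0.033 at 10 µM), but not without a scaling factor (adjusted p = 0.82 at 3 µM and 0.0513 at 10 µM) or, at 3 µM, without replicate 1 of DMSO.

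TK1, the cytosolic thymidine kinase of the salvage pathway, rose instead. At 6 h, TK1 had 171, 182 and 182 CPM at 3 µM, 156, 162 and 163 CPM at 10 µM, and 165 and 160 CPM in DMSO libraries. At 24 h, TK1 had 189, 188 and 191 CPM at 3 µM, 170, 169 and 176 CPM at 10 µM, and 152 and 145 CPM in DMSO libraries. TK1 was above DMSO in all treated libraries at 24 h (0.35 ± 0.034 at 3 µM and 0.21 ± 0.034 at 10 µM), and at 6 h at 3 µM (log2 fold change 0.13 ± 0.034) but not at 10 µM (log2 fold change −0.023 ± 0.034). TYMS, thymidylate synthase, fell at 6 h (−0.096 ± 0.030 at 3 µM and −0.19 ± 0.030 at 10 µM). It rose at 3 µM and 24 h (log2 fold change 0.17 ± 0.031), with 0.021 ± 0.030 at 10 µM, where a rise was called without a scaling factor (log2 fold change 0.13).

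CHAF1A and CHAF1B encode subunits of the chromatin assembly factor that places histones on new DNA. At 6 h, CHAF1B had 44.1, 44.3 and 47.1 CPM at 3 µM, 33.1, 31.7 and 34.2 CPM at 10 µM, and 72.8 and 72.7 CPM in DMSO libraries. At 24 h, CHAF1B had 69.8, 70.4 and 69.6 CPM at 3 µM, 66.5, 67.7 and 69.4 CPM at 10 µM, and 73.5 and 72.1 CPM in DMSO libraries. CHAF1B was below DMSO in every treated library, with log2 fold changes of −0.69 ± 0.036 at 3 µM and −1.14 ± 0.036 at 10 µM at 6 h. For CHAF1B at 24 h, the log2 fold changes were −0.058 ± 0.035 at 3 µM and −0.10 ± 0.035 at 10 µM. There 3 µM was not called and the 10 µM call was lost in 4 of 13 alternatives, among them leaving out replicate 1 of DMSO or replicate 1 of 10 µM. Without a scaling factor the 10 µM value was 0.0089. CHAF1A fell in all 4 comparisons (−0.14 ± 0.031 at 3 µM and −0.23 ± 0.031 at 10 µM at 6 h, −0.11 ± 0.031 at 3 µM and −0.17 ± 0.031 at 10 µM at 24 h). CHAF1A was not called at 24 h without a scaling factor (adjusted p = 0.87 at 3 µM and 0.1 at 10 µM).

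UHRF1, which links DNA methylation to replication, changed mainly at 24 h. At 6 h, UHRF1 had 98.8, 101 and 98 CPM at 3 µM, 89.8, 95.5 and 98.6 CPM at 10 µM, and 95 and 91 CPM in DMSO libraries. At 24 h, UHRF1 had 81.6, 80.5 and 80.6 CPM at 3 µM, 71.5, 71.9 and 72.7 CPM at 10 µM, and 93.3 and 92.7 CPM in DMSO libraries. Treated libraries were below DMSO at 24 h (−0.20 ± 0.035 at 3 µM and −0.37 ± 0.035 at 10 µM). The 6 h values were 0.096 ± 0.035 at 3 µM and 0.025 ± 0.035 at 10 µM, of which the 3 µM rise was lost in 4 of 13 alternatives, among them leaving out replicate 2 of DMSO or replicate 2 of 3 µM.

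Other E2F genes, from the list of the E2F and retinoblastoma network, moved either way at 6 h. E2F4 (67.5 to 76.2 CPM in treated, 89.4 and 91.2 CPM in DMSO libraries) and E2F5 (63.9 to 70.8 against 71.3 and 71.8 CPM) were below DMSO. The 3 µM call of E2F5 at 6 h ended with RLE scaling, no scaling factor, the stricter filter, DESeq2 or the compared groups alone. It also ended without either DMSO library or without replicate 1 of 3 µM. The 10 µM call of E2F5 at 6 h ended under the stricter filter. E2F3 was below DMSO in all libraries at 3 µM and overlapped it at 10 µM, and E2F6 was above it at both doses. The E2F genes described here, E2F1, E2F2, E2F7 and E2F8, also moved either way at 6 h. E2F1 and E2F2 fell at both doses, and E2F7 and E2F8 rose. So few genes cannot show whether activators and repressors differ as classes. E2F1 also fell at 24 h (−0.42 ± 0.037 at 3 µM and −0.43 ± 0.037 at 10 µM at 6 h, −0.095 ± 0.037 at 3 µM and −0.14 ± 0.037 at 10 µM at 24 h). The 24 h calls of E2F1 ended without a scaling factor, where its 3 µM value was 0.0065 and its 10 µM adjusted p was 0.512. At 3 µM and 24 h, E2F1 was also not called without replicate 1 of DMSO or without replicate 2 or 3 of 3 µM.

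E2F2 and E2F8 both changed sides between 6 and 24 h, in opposite directions. At 6 h, E2F2 had 46.2, 42.4 and 43.4 CPM at 3 µM, 46.9, 43.9 and 46.4 CPM at 10 µM, and 54.7 and 54.8 CPM in DMSO libraries. At 24 h, E2F2 had 79.6, 76.6 and 74.9 CPM at 3 µM, 74.3, 75.2 and 76.3 CPM at 10 µM, and 58.7 and 58.7 CPM in DMSO libraries. E2F2 was below DMSO in all treated libraries at 6 h (−0.32 ± 0.038 at 3 µM and −0.26 ± 0.038 at 10 µM) and above in all at 24 h (0.39 ± 0.038 at 3 µM and 0.36 ± 0.038 at 10 µM, larger edgeR adjusted p = 3.49e-09). At 6 h, E2F8 had 88, 86.8 and 90.8 CPM at 3 µM, 92.6, 93.3 and 94.9 CPM at 10 µM, and 68.1 and 69.1 CPM in DMSO libraries. At 24 h, E2F8 had 55.6, 58.5 and 56 CPM at 3 µM, 50.5, 47.7 and 49.4 CPM at 10 µM, and 69.9 and 67.4 CPM in DMSO libraries. E2F8 was above DMSO at 6 h (0.37 ± 0.034 at 3 µM and 0.45 ± 0.035 at 10 µM) and below at 24 h (−0.28 ± 0.035 at 3 µM and −0.48 ± 0.035 at 10 µM, larger edgeR adjusted p = 9.02e-08). E2F7 rose at 6 h (0.21 ± 0.036 at 3 µM and 0.30 ± 0.036 at 10 µM) and fell at 10 µM and 24 h (0.011 ± 0.036 at 3 µM and −0.13 ± 0.036 at 10 µM), a call that ended without a scaling factor (adjusted p = 0.705).

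Read across the 4 comparisons with vehicle, 14 of the 45 genes fell in each (16.6% of all genes tested did). They were MCM3, MCM4, CDC6, CDC45, GINS2, POLA1, POLA2, PRIM1, POLD3, RFC2, LIG1, RRM2, CHAF1A and E2F1. Without a scaling factor 8 did, namely MCM4, GINS2, POLA1, POLA2, PRIM1, RFC2, LIG1 and RRM2. MCM2, ORC1, ORC6, CDT1 and GINS3 rose in all 4, which made 5 of 45 (15.4% of all genes). The comparisons at one time share their DMSO libraries, so these calls are not independent of each other.

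Whether the effect of CC-671 changed with time was tested by subtracting the 6 h effect of a dose from its 24 h effect. At 3 µM this difference was called in 37 of the 45 genes (49.3% of all genes), higher in 24 of the 45 genes (25.6% of all genes tested) and lower in 13 (23.7% of all genes). At 10 µM it was called in 39 (54% of all genes), higher in 25 (27.6% of all genes) and lower in 14 (26.4% of all genes). The median difference of the 45 was 0.19 at 3 µM and 0.14 at 10 µM, on the log2 scale. The largest were those of POLE2 (1.34 ± 0.060) and CDC45 (1.33 ± 0.073) at 10 µM, both toward the level of DMSO. All 8 polymerase and primase genes had a positive difference at both doses. Over all genes tested, the difference was negative in 49% at 3 µM and in 50% at 10 µM. At each dose 7 of the 8 were called higher, with POLE as the exception. Of all genes, 25.6% were called higher at 3 µM and 27.6% at 10 µM. The POLD1 call at 10 µM (adjusted p = 0.0436) was lost under 10 alternatives, with RLE scaling, the stricter filter, DESeq2, any 1 DMSO library left out, replicate 2 of 10 µM at 6 h left out, or replicate 1 or 2 of 10 µM at 24 h left out. POLE at 3 µM (adjusted p = 0.0783) was called with limma-voom (adjusted p = 0.0113), the stricter filter, no scaling factor, the compared groups alone, or replicate 1 of 3 µM at 6 h left out, and its adjusted p was 0.0113 to 0.204 over 18 alternatives.

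At 3 µM, 10 of the 45 were called in opposite directions at 6 and 24 h (8.69% of all genes), and 10 were so at 10 µM (10.5% of all genes). MCM7, GINS1, FEN1 and E2F8 were higher at 6 h and lower at 24 h at both doses, together with UHRF1 at 3 µM and GMNN and E2F7 at 10 µM. Without a scaling factor FEN1 and E2F8 kept this order at both doses, UHRF1 at 3 µM and MCM7 at 10 µM. RFC4, RPA2 and E2F2 were lower at 6 h and higher at 24 h at both doses, together with PCNA and TYMS at 3 µM and MCM5 at 10 µM. This order held without a scaling factor for 8 genes at 3 µM, with GINS4, PRIM2 and RPA1 added, and for 9 at 10 µM, with MCM6, PRIM2, PCNA, RFC5 and TYMS added. The difference of effects was −0.69 ± 0.052 for FEN1 at 3 µM and −0.81 ± 0.052 at 10 µM (larger edgeR adjusted p = 1.13e-11), −0.93 ± 0.049 for E2F8 at 10 µM, and 0.71 ± 0.054 for E2F2 at 3 µM.

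**Figure D3:**
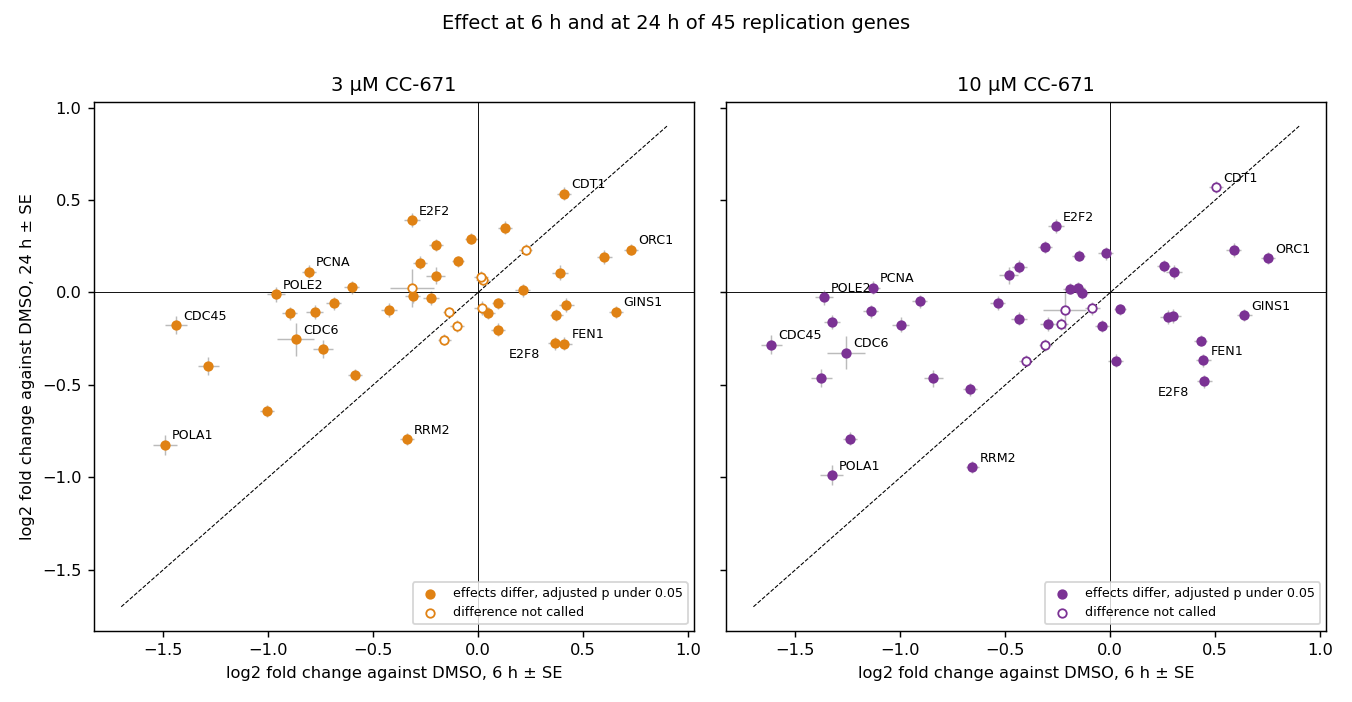
Log2 fold change ± SE against DMSO at 24 h (vertical axis) against that at 6 h (horizontal axis) for each of the 45 genes, at 3 µM (left) and 10 µM (right), with the dashed line where both are equal. Filled points mark genes whose 2 effects differed (edgeR adjusted p under 0.05), 37 at 3 µM and 39 at 10 µM. CDC45 and POLE2 lie far to the left of the line, RRM2 lies below it, and GINS1, FEN1 and E2F8 lie to the right of 0 at 6 h and below 0 at 24 h.

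The higher dose gave lower levels of most of these genes. At 6 h, 28 of the 45 were called (24.9% of all genes). Of them 25 were lower at 10 µM than at 3 µM (12.9% of all genes tested) and 3 were higher (12% of all genes), namely POLA1, CDT1 and E2F7, with a median log2 difference of −0.10 against 0.0067 over all genes. The count of 3 moved, and was 1 without a scaling factor, 5 under the stricter filter and 0 in a fit of those groups alone. It was also 1 when replicate 2 or 3 of 3 µM or replicate 1 of 10 µM was left out. CHAF1B (−0.45 ± 0.033), POLD3 (−0.43 ± 0.035) and POLE2 (−0.40 ± 0.041) differed most, and for each of them every 10 µM library was below every 3 µM library.

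At 24 h, 13 of the 45 were called (6.35% of all genes), all lower at 10 µM (3.85% of all genes), and 0 were higher by edgeR (2.49% of all genes). At an unadjusted p under 0.05, 24 were lower and 0 higher, DESeq2 and limma-voom each called 15 lower and 0 higher, and a fit of those groups alone called 25 lower. The estimate was negative in 41 of 45 genes (51.2% of all genes), and in 31 of them the 3 libraries at 10 µM all lay below the 3 at 3 µM (16.5% of all genes). The median was −0.071 against −0.0031 over all genes. E2F8 (−0.20 ± 0.031), UHRF1 (−0.17 ± 0.031) and LIG1 (−0.16 ± 0.042) were the largest called differences, and the LIG1 call was lost in 5 of 14 alternatives, namely without a scaling factor and without replicate 1 or 3 of either dose. RRM2 was lower at 10 µM at both times, with log2 differences of −0.32 ± 0.029 at 6 h and −0.15 ± 0.029 at 24 h.

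**Figure D4:**
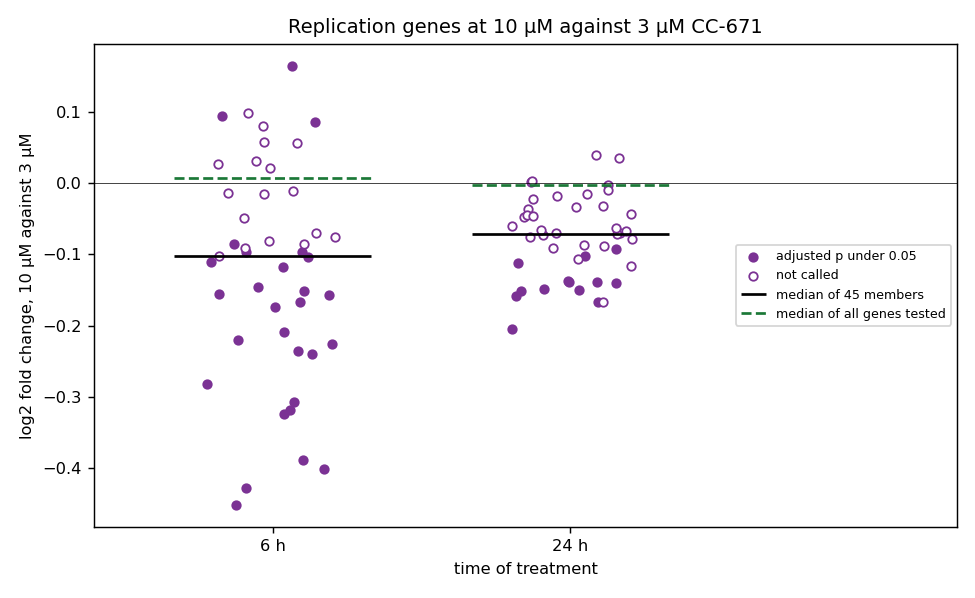
Log2 fold change of each of the 45 genes at 10 µM against 3 µM, at 6 h and 24 h, with the horizontal position within a time only spreading the points. Filled points have an edgeR adjusted p under 0.05. The black line is the median of the 45 genes, −0.10 at 6 h and −0.071 at 24 h, and the dashed green line is the median of all genes tested.

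The vehicle groups also differed between times, by less. In DMSO at 24 h against DMSO at 6 h, 10 of the 45 were called (20.5% of all genes). Of them 8 were lower (9.55% of all genes tested) and 2 were higher (11% of all genes), and the estimates ran from −0.20 (ORC6) to 0.18 (POLA1). Each group had 2 libraries, and leaving out 1 of the 4 gave 1 to 6 lower and 0 or 1 higher. The count of lower genes was 5 without replicate 1 and 4 without replicate 2 at 6 h, and 1 without replicate 2 at 24 h. The call of ORC6 was the only one of the 10 kept in all 12 alternatives run.

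Other features that the choice of genes did not use were taken from GENCODE 29. The 45 genes had 2 (FEN1) to 49 (POLE) exons in the annotated transcript with the most exons, with a median of 13. Of the 15 genes with 1 to 10 exons, 7 rose and 7 fell at 3 µM and 6 h, with a median of 0.016, against 0.094 over 7821 protein-coding genes tested with as many exons. Of the 13 with 11 to 15 exons, 3 rose and 9 fell, with a median of −0.20 against −0.11 over 2740 genes. Of the 17 with 16 or more, 4 rose and 10 fell, with a median of −0.22 against −0.27 over 3423 genes. Over all genes tested, 31.6% rose and 31.6% fell in that comparison. Spearman's rho between exon number and log2 fold change at 3 µM and 6 h was −0.33 over the 45 genes and −0.34 over 14000 protein-coding genes, which are not independent points and share all libraries. At 10 µM and 24 h it was −0.31 over the 45 and −0.13 over all.

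Some of the values carry an uncertainty from the counting. In GENCODE 29, 7 of the 45 genes share exon bases with another gene on the same strand and 15 with one on the opposite strand, 20 with either. PRIM1, FEN1 and CHAF1B are among the first, overlapping NACA, FADS2 and MORC3, and MCM7, RFC4 and TYMS among the second, overlapping AP4M1, EIF4A2 and ENOSF1. The strand setting of the counts is not given in the sources used here. PCNA, RFC3, RFC5, FEN1, RPA2, RRM2 and TYMS have at least 1 named pseudogene, with which near-identical reads could be shared.

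A list of 40 other replication genes was set beside all genes tested. At 3 µM and 6 h 9 rose and 23 fell (22.5% and 57.5%, against 31.6% and 31.6% of all genes). At 10 µM and 6 h 6 rose and 25 fell (15% and 62.5%, against 34% and 33.6% of all genes). At 24 h 8 rose and 23 fell at 3 µM (20% and 57.5%, against 29.7% and 30.9% of all genes) and 7 rose and 27 fell at 10 µM (17.5% and 67.5%, against 31.3% and 32.3%). At 24 h without a scaling factor 13 rose and 13 fell at 3 µM and 10 rose and 19 fell at 10 µM. Their median log2 fold change at 6 h was −0.19 at 3 µM and −0.33 at 10 µM, and at 24 h −0.11 and −0.20. DSCC1, a subunit of a PCNA loader that acts in sister chromatid cohesion, fell furthest. At 6 h, DSCC1 had 5.07, 4.81 and 5.51 CPM at 3 µM, 4.91, 4.27 and 4.75 CPM at 10 µM, and 37.1 and 39 CPM in DMSO libraries. At 24 h, DSCC1 had 22, 23.6 and 24.3 CPM at 3 µM, 22.5, 22 and 22.5 CPM at 10 µM, and 36.8 and 36.1 CPM in DMSO libraries. No treated library overlapped DMSO, and the log2 fold changes were −2.89 ± 0.054 at 3 µM and −3.03 ± 0.055 at 10 µM at 6 h. For DSCC1 at 24 h, the log2 fold changes were −0.64 ± 0.049 at 3 µM and −0.70 ± 0.049 at 10 µM.

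RFC1, the large subunit of the PCNA loader, fell with log2 fold changes of −1.68 ± 0.076 at 3 µM and −1.86 ± 0.076 at 10 µM at 6 h. Its means were 52 ± 2.93 CPM at 3 µM and 45.8 ± 6.06 CPM at 10 µM (SD, n = 3), against 167 ± 1.92 CPM in DMSO libraries (SD, n = 2). MCM8, a relative of the MCM ring that acts in recombination, fell with log2 fold changes of −1.43 ± 0.069 at 3 µM and −1.69 ± 0.070 at 10 µM at 6 h. Its means were 28.7 ± 1.73 CPM at 3 µM and 23.9 ± 2.84 CPM at 10 µM (SD, n = 3), against 77.1 ± 0.0787 CPM in DMSO libraries (SD, n = 2). Both RFC1 and MCM8 were still below DMSO in every treated library at 24 h. There RFC1 had 143 to 148 CPM in treated and 175 and 180 CPM in DMSO libraries. MCM8 had 50.6 to 56.9 CPM in treated and 83.7 and 84.1 CPM in DMSO libraries. The 24 h calls of RFC1 ended without a scaling factor (edgeR adjusted p = 0.056 at 3 µM and 0.0501 at 10 µM). At 24 h DONSON, a helicase assembly factor, fell most, with log2 fold changes of −1.21 ± 0.041 at 3 µM and −1.30 ± 0.041 at 10 µM. Its means were 20.1 ± 0.555 CPM at 3 µM and 18.9 ± 0.178 CPM at 10 µM (SD, n = 3), against 46.6 ± 1.39 CPM in DMSO libraries (SD, n = 2). WDHD1, which tethers polymerase alpha to the helicase, fell with log2 fold changes of −0.83 ± 0.042 at 3 µM and −0.99 ± 0.043 at 10 µM at 24 h. Its means were 65.5 ± 0.707 CPM at 3 µM and 58.8 ± 0.331 CPM at 10 µM (SD, n = 3), against 116 ± 0.285 CPM in DMSO libraries (SD, n = 2). Both DONSON and WDHD1 were already below DMSO in every treated library at 6 h. There DONSON had 23.2 to 25.3 CPM in treated and 47.6 and 50.4 CPM in DMSO libraries. WDHD1 had 38.2 to 46.1 CPM in treated and 105 and 108 CPM in DMSO libraries. Rises were smaller. The histone chaperones ASF1A (0.37 ± 0.043 at 3 µM and 0.38 ± 0.043 at 10 µM) and ASF1B (0.44 ± 0.033 at 3 µM and 0.33 ± 0.033 at 10 µM) rose at 6 h. The polymerase epsilon subunit POLE3 rose at 6 h (0.39 ± 0.032 at 3 µM and 0.42 ± 0.032 at 10 µM) and had 24 h values of −0.085 ± 0.032 at 3 µM and −0.082 ± 0.032 at 10 µM, which were called falls but had the other sign without a scaling factor. POLD4 (0.49 ± 0.10 at 3 µM and 0.63 ± 0.10 at 10 µM), an accessory subunit of polymerase delta, and RRM2B (0.29 ± 0.040 at 3 µM and 0.33 ± 0.040 at 10 µM) rose at 24 h. ORC5 rose at 24 h (0.26 ± 0.048 at 3 µM and 0.29 ± 0.048 at 10 µM) after a called fall at 6 h (−0.50 ± 0.047 at 3 µM and −0.65 ± 0.048 at 10 µM).

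In the network of E2F and retinoblastoma genes, 29 others were listed. At 3 µM and 6 h 9 rose and 12 fell (31% and 41.4%, against 31.6% and 31.6% of all genes). At 10 µM and 6 h 9 rose and 13 fell (31% and 44.8%, against 34% and 33.6%). The share that rose at 6 h was near that of all genes. At 3 µM and 24 h 5 rose and 17 fell (17.2% and 58.6%, against 29.7% and 30.9%). At 10 µM and 24 h 7 rose and 18 fell (24.1% and 62.1%, against 31.3% and 32.3%). At 24 h without a scaling factor, however, 9 rose and 11 fell at 3 µM and 10 rose and 13 fell at 10 µM. Their median log2 fold change at 6 h was −0.020 at 3 µM and −0.030 at 10 µM, and at 24 h −0.15 and −0.13. CDKN1A, the inhibitor of cyclin-dependent kinases known as p21, rose most. At 6 h, CDKN1A had 129, 144 and 138 CPM at 3 µM, 155, 170 and 159 CPM at 10 µM, and 63.5 and 66.6 CPM in DMSO libraries. At 24 h, CDKN1A had 232, 222 and 220 CPM at 3 µM, 218, 217 and 218 CPM at 10 µM, and 57.3 and 58.1 CPM in DMSO libraries. CDKN1A was above DMSO in every treated library, with log2 fold changes of 1.08 ± 0.042 at 3 µM and 1.31 ± 0.042 at 10 µM at 6 h. For CDKN1A at 24 h, the log2 fold changes were 1.96 ± 0.044 at 3 µM and 1.91 ± 0.044 at 10 µM.

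RB1 and RBL1 encode pocket proteins that hold E2F factors inactive, and both fell at 6 h. At 6 h, RB1 had 95.4, 89.1 and 101 CPM at 3 µM, 76.2, 73.5 and 77.2 CPM at 10 µM, and 152 and 156 CPM in DMSO libraries. At 6 h, RBL1 had 34.1, 33 and 36.9 CPM at 3 µM, 30, 29.7 and 31.2 CPM at 10 µM, and 62.5 and 66.3 CPM in DMSO libraries. All treated libraries at 6 h lay below DMSO, with log2 fold changes of −0.70 ± 0.038 at 3 µM and −1.03 ± 0.039 at 10 µM for RB1 and −0.89 ± 0.042 at 3 µM and −1.09 ± 0.042 at 10 µM for RBL1. Falls were called at 24 h too, for RBL1 at both doses and for RB1 at least at 3 µM. Without a scaling factor these ended (edgeR adjusted p = 0.57 at 3 µM and 0.94 at 10 µM for RBL1, 0.0899 at 3 µM for RB1). Both 24 h calls of RBL1 also ended under the stricter filter or without replicate 1 of DMSO. The cyclin CCNE2 fell with log2 fold changes of −0.30 ± 0.040 at 3 µM and −0.48 ± 0.040 at 10 µM at 6 h. The repressor E2F6 (0.44 ± 0.045 at 3 µM and 0.59 ± 0.045 at 10 µM) and the APC/C inhibitor FBXO5 (0.39 ± 0.038 at 3 µM and 0.38 ± 0.038 at 10 µM) rose at 6 h. At 24 h, the inhibitor CDKN2C (−0.59 ± 0.039 at 3 µM and −0.81 ± 0.039 at 10 µM) and the ubiquitin ligase subunit SKP2 (−0.49 ± 0.033 at 3 µM and −0.57 ± 0.033 at 10 µM) fell. E2F5 (−0.41 ± 0.037 at 3 µM and −0.48 ± 0.037 at 10 µM) and MYBL2 (−0.38 ± 0.027 at 3 µM and −0.60 ± 0.027 at 10 µM) fell at 24 h too. The DREAM complex subunit LIN52 (0.26 ± 0.042 at 3 µM and 0.26 ± 0.042 at 10 µM) and CDKN2A (0.21 ± 0.047 at 3 µM and 0.14 ± 0.047 at 10 µM) rose. E2F6 rose at 24 h too (0.21 ± 0.046 at 3 µM and 0.27 ± 0.046 at 10 µM). LIN37, another DREAM subunit, rose at 10 µM and 24 h (log2 fold change 0.31 ± 0.13), and this call was lost in 4 of 13 alternatives, among them leaving out replicate 1 of DMSO or replicate 2 of 10 µM. The 10 µM call of CDKN2A also ended without replicate 1 of DMSO.

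Each library had 104609173 to 123789361 read pairs at genes, and of these the 45 genes held 0.589 to 0.685%. Of 2 markers of dividing cells, TOP2A fell in all 4 comparisons (−0.18 ± 0.065 at 3 µM and −0.46 ± 0.065 at 10 µM at 6 h, −0.19 ± 0.065 at 3 µM and −0.34 ± 0.065 at 10 µM at 24 h). MKI67 fell at 24 h (−0.34 ± 0.091 at 3 µM and −0.58 ± 0.090 at 10 µM), and its 6 h values (−0.10 ± 0.091 at 3 µM and −0.0026 ± 0.091 at 10 µM) were not called. Without a scaling factor, MKI67 and TOP2A were not called at 3 µM and 24 h (adjusted p = 0.054 and 0.299) nor TOP2A at 3 µM and 6 h (adjusted p = 0.0729). The 3 µM calls of TOP2A also ended without replicate 2 of DMSO or of 3 µM at 6 h, and at 24 h without either DMSO library or without replicate 1 or 3 of 3 µM. The summed CPM of both at 6 h was 966 to 1070 at 3 µM and 846 to 1040 at 10 µM, against 1080 to 1180 in DMSO libraries. At 24 h this sum was 1110 to 1120 at 3 µM and 968 to 1010 at 10 µM, against 1310 to 1330 in DMSO libraries, and their part in the results was not tested. Pairs that fell in no annotated exon made up 5.01 to 6.22% of all pairs in treated libraries and 3.78 to 4.24% in DMSO libraries, and their part was not tested either. Keratin and epithelial markers were detected in every library, with KRT8 at 536 to 700 CPM, EPCAM at 264 to 371 CPM and CDH1 at 26.2 to 45.2 CPM. So were mesenchymal markers, with VIM at 208 to 343 CPM, ZEB1 at 61.4 to 73.9 CPM and CDH2 at 26.1 to 33.7 CPM. ESR1 and PGR stayed at or under 0.0477 and 0.0356 CPM, whereas ERBB2, the third receptor of the triple-negative label, was at 84.7 to 192 CPM, and the 3 together held 84.7 to 121 CPM in treated and 178 to 192 CPM in DMSO libraries. The leukocyte marker CD3E and the fibroblast markers DCN and FAP were at or near 0, at most 0.0255 CPM. Other markers of these lists were detected, PTPRC of leukocytes at 5.08 to 13.1 CPM, and PDGFRB at 30.9 to 72 CPM, COL1A1 at 8.11 to 15.2 CPM and COL1A2 at 11.4 to 21.9 CPM of fibroblasts. At 6 h, all 8 leukocyte markers together held 12 to 13.2 CPM in treated libraries and 10.8 CPM in DMSO libraries, the 7 fibroblast markers 78 to 81.9 CPM and 82.3 to 88.7 CPM, and 4 endothelial markers 10.6 to 12.3 CPM and 12.3 to 13.3 CPM. At 24 h, all 8 leukocyte markers together held 6.53 to 8.07 CPM in treated libraries and 13.2 to 13.8 CPM in DMSO libraries. The 7 fibroblast markers held 55.4 to 66.8 CPM in treated and 112 to 113 CPM in DMSO libraries, and 4 endothelial markers held 8.44 to 10.7 CPM and 19.2 to 19.5 CPM in the same groups. Their part in the results was not tested.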

How the data were processed

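Poly-A selected, strand-specific RNA libraries of CAL51 cells were sequenced as paired reads, per the labels' protocols. The deposited files hold whole-number counts of read pairs per gene symbol, made by the authors with STAR and HTSeq on hg19 (GRCh37), per the submitters' processing notes, which also name edgeR. For the versions, the annotation, the strand setting and the overlap mode, the sources used here give nothing. The 5 non-gene entries of each file, 16.9 to 20.2% of all pairs, entered neither library sizes nor tests.

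The counts were tested in R 4.3.3 with edgeR 4.0.16, by robust quasi-likelihood F tests on 6 group means over all 16 libraries, after filterByExpr (minimum count 10, minimum total 15) and TMM scaling. Benjamini-Hochberg adjustment ran over all genes tested in each of 9 comparisons, with an adjusted p under 0.05 as a call. The SE is the log2 fold change divided by the square root of F. Alternatives were RLE scaling, no scaling factor, no filter, a stricter filter (1 CPM in 5 libraries), limma-voom 3.58.1, DESeq2 1.42.0, a replicate block, the compared groups alone and each library left out. The fits were tested on simulated data with 200 genes changed, drawn once per comparison. There 3.43 to 9.57% of calls were false, above the threshold in most comparisons. Far fewer genes changed there than were called against vehicle here, so it cannot give the share of false calls in these data. Chi-square per gene was 2.54 to 19.7 over the 14 pairs of libraries within groups, above sampling noise.

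Every one of the 45 genes may be named. Values in every library are given for the largest called rise and fall in each role group, up to 4 genes a dose called in opposite directions at 6 and 24 h, and up to 3 with the largest dose difference at each time, and of the other lists up to 3 rises and 3 falls a comparison are named. The genes and lists were chosen with earlier results of these data known. Promoters and gene structure came from RefSeq (GRCh38.p14) and GENCODE 29 tables and were joined by symbol.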

Additional observations from a re-analysis of the deposited data

Results flagged for a closer look

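The effect of CC-671 differed between 24 h and 6 h, by the test of the difference itself in edgeR, in 37 of the 45 genes at 3 µM (49.3% of all genes tested) and in 39 at 10 µM (54% of all genes tested). Among genes called in opposite directions at the 2 times, the log2 difference of effects (24 h minus 6 h) at 3 µM was 0.92 for PCNA, −0.76 for GINS1, 0.71 for E2F2 and −0.69 for FEN1. At 10 µM it was −0.93 for E2F8, −0.81 for FEN1, −0.76 for GINS1 and −0.69 for MCM7.

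Read pairs outside annotated exons, which enter no comparison, were at least 5.01% of all pairs in every treated library and at most 4.24% in DMSO libraries.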

How the results depend on the processing

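Over 509 gene comparisons, 6761 of 7112 alternative values kept their call or lack of one, 250 lost a call, 92 gained one, and 9 with a call in at least 1 of the 2 fits changed sign. Those 9 were all at 24 h without a scaling factor. A further 124 values, called in neither fit and counted among the 6761, also had the opposite sign. At 3 µM the log2 fold changes were then 0.082 for GINS4, 0.018 for RFC3, 0.0065 for E2F1 and 0.016 for POLE3, and at 10 µM 0.11 for MCM6, 0.020 for MCM10, 0.025 for RFC3, 0.0089 for CHAF1B and 0.029 for POLE3.

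Of 256 alternative counts of called genes, 239 stayed within 1.5 times. Without a scaling factor, falls at 24 h numbered 11 at 3 µM and 13 at 10 µM, 1 gene was higher at 10 µM than at 3 µM at 6 h, and 1 was higher in DMSO at 24 h than at 6 h. The stricter filter gave 5 genes higher at 10 µM than at 3 µM at 6 h, and the compared groups alone gave 0 higher at 6 h and 25 lower at 24 h. Leaving out 1 library gave 1 to 3 genes higher at 10 µM than at 3 µM at 6 h, and in DMSO at 24 h against 6 h 0 to 1 higher and 1 to 6 lower. The cause was not tested.

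Same-numbered libraries did not deviate together (36 correlations of −0.0757 to 0.0808), so the numbers were not taken as pairs. With the replicate block 503 values kept their call or lack of one, 4 lost a call, among them E2F1 at 3 µM and 24 h (adjusted p = 0.0528), and 2 gained one. The lowest count of any of the 45 genes in any library was 1041.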
